A study of Homo sapiens with 54 samples.

Results

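HCT-116 is a human colorectal cancer cell line, and the RNA described here came from HCT-116 cells grown to resistance against 5-fluorouracil (5-FU). All 6 libraries of the comparison came from resistant cells treated with 10 µM 5-FU for 24 h, and 3 of the 6 came from cells that were also irradiated with 1.7 Gy of X-rays. They were chosen by their labels, and they are 6 of the 54 poly(A) RNA-seq libraries of a study of 3 colorectal cancer lines under uracil (the control), 5-FU, and 5-FU with irradiation. The comparison asks which genes differed when irradiation was added to 5-FU in cells that already tolerate the drug. The resistant line was 1 population that had been passaged in rising 5-FU. By the study's methods it was kept in the drug at a higher dose than the 10 µM of this treatment. Both groups share this history. By the study's methods, the medium was changed before irradiation, so irradiation and the medium change cannot be told apart. The time from irradiation to harvest is not given in the sources used here. The study calls its replicates biological, and each group had 3.

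The drug 5-FU resembles uracil; its metabolites inhibit thymidylate synthase and enter RNA and DNA. Ionising radiation breaks DNA, and the transcription factor p53 is stabilised after such breaks. p53 switches on genes that stop the cell cycle, promote cell death, repair DNA and limit p53 itself. The p53 target CDKN1A encodes p21, an inhibitor of cyclin-dependent kinases, and p21 leads to repression of the genes for DNA replication and mitosis through complexes that bind CHR and E2F sites in their promoters.

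The 6 libraries held 50140408 to 63114655 estimated counts. Line markers, which are genes at 10 TPM or more in 1 sensitive line and at most 0.1 TPM in the other lines under uracil, placed the 6 libraries with HCT-116: 62 of its 64 markers reached 1 TPM in every library, against 0 of 20 for DLD-1 and 0 of 12 for HT-29. TPM is a relative transcript level corrected for transcript length and depth. Among the libraries used for comparison, those labelled resistant HT-29 held 62 of 64 HCT-116 markers and 0 of 12 HT-29 markers, against their label, and the resistant DLD-1 libraries held 19 of 20 DLD-1 markers. One library stood apart. A chi-square of the counts between replicates, divided by its degrees of freedom, was 2.94 to 4.15 for 4 of the 6 replicate pairs, and 10.3 and 13.9 for the pairs of irradiated replicates 1 and 2 with irradiated replicate 3. Counts of called genes within HCT-116 are therefore also given without that library. The comparisons with other lines were not refitted without it.

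Adding irradiation changed many genes by small amounts. Of 22975 genes tested, 390 (1.7%) were higher and 203 (0.884%) lower at an adjusted p of at most 0.01 (edgeR quasi-likelihood test, Benjamini-Hochberg over all genes), and such genes are called higher or lower below. In all, 6 genes (0.0261%) also differed by at least 2-fold. The median fold of the called genes was 1.28 among the higher and 1.18 among the lower, and 541 of the 593 differed by less than 1.5-fold. The irradiated and non-irradiated TPM values did not overlap for 543 of the 593, against 20.7% of all genes tested. Without irradiated replicate 3, 188 genes were higher and 195 lower. Without 5-FU replicate 1, 2 or 3 the higher counts were 118, 122 and 142 and the lower counts 75, 77 and 106. Without irradiated replicate 1 or 2 they were 220 and 270 higher and 134 lower in each case. All 593 kept their direction when any 1 of the 6 libraries was left out, and 149 were called each time. The 593 were chosen with all 6 libraries, so the kept direction says little.

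**Figure D1:**
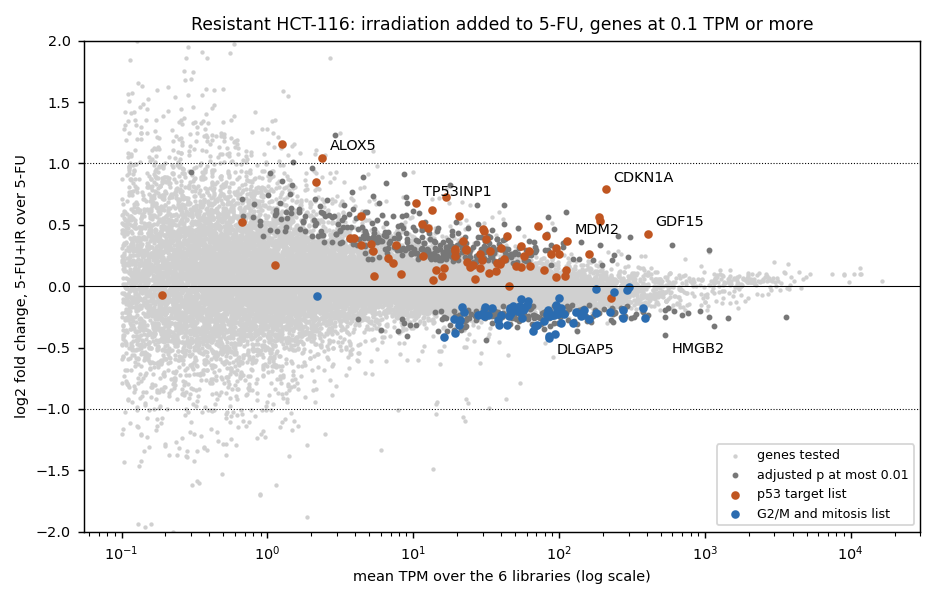
Log2 fold change of 5-FU with irradiation over 5-FU alone in resistant HCT-116 (vertical axis) against mean TPM over the 6 libraries (horizontal axis, log scale) for the 22032 tested genes at 0.1 TPM or more, 43 of which lie beyond the axis limits of 2. Dark grey points are called genes, orange points the p53 target list and blue points the G2/M and mitosis list, and dotted lines mark 2-fold; the orange points sit mostly above 0, the blue points below it, and nearly all within the dotted lines.

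The p53 targets were the group that rose most often. Of 76 tested members of a list of 77 direct p53 targets, 37 were called higher and 0 lower, which is 48.7% of the list against 1.7% of all genes. The median log2 fold change over the 76 was 0.28, against 0.02 over all genes tested, and 74 of 76 lay above 0. Leaving out 1 library at a time gave 22 to 31 called members, all higher, and 28 without irradiated replicate 3. The count fell by over 1.5 times without non-irradiated replicate 1, 2 or 3, to 22, 24 and 23.

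p53 binds a response element made of 2 abutting half-sites of 10 bases. Of the 28 called targets that matched a RefSeq promoter entry, 3 held such an element within 2500 bases upstream of the RefSeq gene start, allowing 2 mismatches and no gap and reading either strand. These 3 are shown because they belong to genes with some of the smallest p-values of the comparison. Over all tested genes with an entry, 169 of 12893 windows (1.31%) held the element, against 10.7% of the 28 and 14.8% of the 61 listed targets with an entry. The capitals mark the 20 bases of the element, read 5′ to 3′ on the strand of the gene (GRCh38).
CDKN1A, chr6:36676449-36676468, plus strand, 2265 bases upstream: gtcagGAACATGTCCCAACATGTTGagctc
BTG2, chr1:203303642-203303661, plus strand, 1877 bases upstream: gggtcACGCATGTTCAGGCATGCATggaat
PLK2, chr5:58462274-58462293, minus strand, 2207 bases upstream: atgagAAACATGCCTGGACTTGCCCtgcac
The PLK2 element had 0 mismatches, and those of CDKN1A and BTG2 had 2 each. The upstream distances are from the RefSeq start of each gene, whereas the gene spans given in the next paragraphs are from GENCODE, which starts CDKN1A further upstream. A match describes letters in the window and is not a measured binding site.

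Among the targets that arrest the cell cycle, CDKN1A (chromosome 6, 36676460 to 36687337) gave the smallest p of all genes tested. Its level was 159, 158 and 151 TPM in the 5-FU libraries and 250.1, 247 and 303 TPM in the irradiated ones. The groups did not overlap, irradiated replicate 3 was the highest, and the log2 fold change was 0.79 ± 0.060 (SE, adjusted p = 2.65e-07), or 1.73-fold. It ranged from 0.66 to 0.84 when single libraries were left out. Most of the CDKN1A signal sat in one protein-coding transcript, CDKN1A-201, at 134 ± 2.74 TPM without and 233 ± 26.7 TPM with irradiation (mean ± SD, n = 3). MDM2 signal was split over more transcripts, of which MDM2-224 went from a mean of 28.6 to 38.6 TPM and MDM2-202 from 15.5 to 19.8 TPM. BTG2 (chromosome 1, 203305491 to 203309602), an antiproliferative cofactor of mRNA decay, went from 12.9, 13.1 and 12 to 21.7, 20.5 and 20.6 TPM, a log2 fold change of 0.73 ± 0.060 (SE, adjusted p = 5.01e-07). The polo-like kinase PLK2 went from 68.3, 70.1 and 71.0 to 90.3, 89.2 and 97.4 TPM, with a log2 fold change of 0.41 ± 0.038 (SE, adjusted p = 1.64e-06). SFN, which encodes the checkpoint protein 14-3-3 sigma, went from 159, 147 and 149.6 to 201, 190.1 and 282 TPM (0.56 ± 0.099, SE, adjusted p = 0.00126). Irradiated replicate 3 was far above the other libraries, and without single libraries the log2 fold change of SFN ranged from 0.33 to 0.67 and its adjusted p reached 0.0164. GADD45A, a stress sensor, stood at 59.4, 59.7 and 60.0 TPM against 66.4, 66.1 and 68.6 TPM and did not pass (adjusted p = 0.0283).

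Genes that limit p53 rose too. MDM2 (chromosome 12, 68808177 to 68845544), the ubiquitin ligase that degrades p53, stood at 99.0, 107 and 89.5 TPM without and 127, 129 and 131 TPM with irradiation, a log2 fold change of 0.37 ± 0.047 (SE, adjusted p = 7.33e-05). The 3 irradiated libraries lay within 4 TPM of each other and above all the others. PPM1D, a phosphatase that dampens the damage signal, rose by 0.30 ± 0.049 (SE, adjusted p = 0.000768) on the log2 scale.

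Targets that promote cell death also rose. TP53INP1, which promotes p53-dependent death and autophagy, went from 7.68, 8.23 and 8.11 to 12.4, 13.6 and 12.3 TPM, a log2 fold change of 0.68 ± 0.058 (SE, adjusted p = 5.01e-07). The death receptor FAS stood at 16.9, 18.6 and 15.8 TPM and rose to 22.6, 23.7 and 27.0 TPM, by 0.57 ± 0.068 (SE, adjusted p = 3.46e-05) on the log2 scale. BBC3, which encodes the BH3-only protein PUMA, was at 11.5, 10.5 and 10.3 TPM and then 15.0, 14 and 14.3 TPM, a change of 0.47 ± 0.059 (SE, adjusted p = 5.75e-05). None of these 3 genes overlapped between the groups. The TRAIL receptor TNFRSF10B (0.26) and the pore-forming BAX (0.31) rose by less on the log2 scale. Of the 31 tested genes of the BCL2 family and death receptor list, 6 were higher (19.4%, against 1.7% of all genes tested) and 0 lower. Apart from BIK, these 6 are also on the p53 list. PMAIP1, which encodes NOXA and is a p53 target too, stood at 96.1, 95.7 and 87.6 TPM without and 102, 98.5 and 93.9 TPM with irradiation (adjusted p = 0.486).

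A further set of targets acts in repair, nucleotide supply and metabolism. FDXR, a mitochondrial ferredoxin reductase used as a radiation marker in blood, went from 60.9, 59.7 and 59.2 to 81.0, 84.2 and 86.6 TPM, a log2 fold change of 0.49 ± 0.042 (SE, adjusted p = 5.01e-07). RPS27L, a ribosomal protein paralog that p53 induces, went from 157, 166 and 149 to 221, 226 and 236 TPM (0.53). RRM2B, the p53-inducible subunit of ribonucleotide reductase, was at 37.6, 39.5 and 36.7 TPM and rose to 47.8, 51.3 and 51.5 TPM (0.41). These 3 genes were separated in every library. The nucleotide excision repair genes DDB2 and XPC rose by 0.33 and 0.21, with XPC overlapping between groups in TPM. The stress-induced sestrins SESN1 (0.62) and SESN2 (0.34) were higher as well. GDF15, a secreted stress cytokine, was spread among the irradiated libraries at 529, 501 and 371 TPM against 349, 341 and 357 TPM and did not pass (adjusted p = 0.108).

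Most of the called p53 targets stayed below their level in sensitive cells. In 33 of the 37 the mean TPM of the irradiated resistant libraries was below that of the sensitive HCT-116 libraries under 5-FU alone, and in 4 it was above. CDKN1A was at 219.8 ± 7.68 TPM in sensitive cells under uracil, 664 ± 10.5 under 5-FU and 741 ± 27.5 with irradiation added (mean ± SD, n = 3), against 162 ± 3.80, 156 ± 4.33 and 267 ± 31.5 in resistant cells. The median of the 76 targets in resistant cells was 0.623 of the level in sensitive cells, both under 5-FU. Between 5-FU and uracil in resistant cells, 0 of 22975 genes (0%) passed in edgeR and 4 in DESeq2, and 1878 had an unadjusted p under 0.05. The p53 list had a median log2 fold change of 0.00 there, with 36 of 76 above 0. That comparison and the one of irradiation use the same 5-FU libraries.

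**Figure D2:**
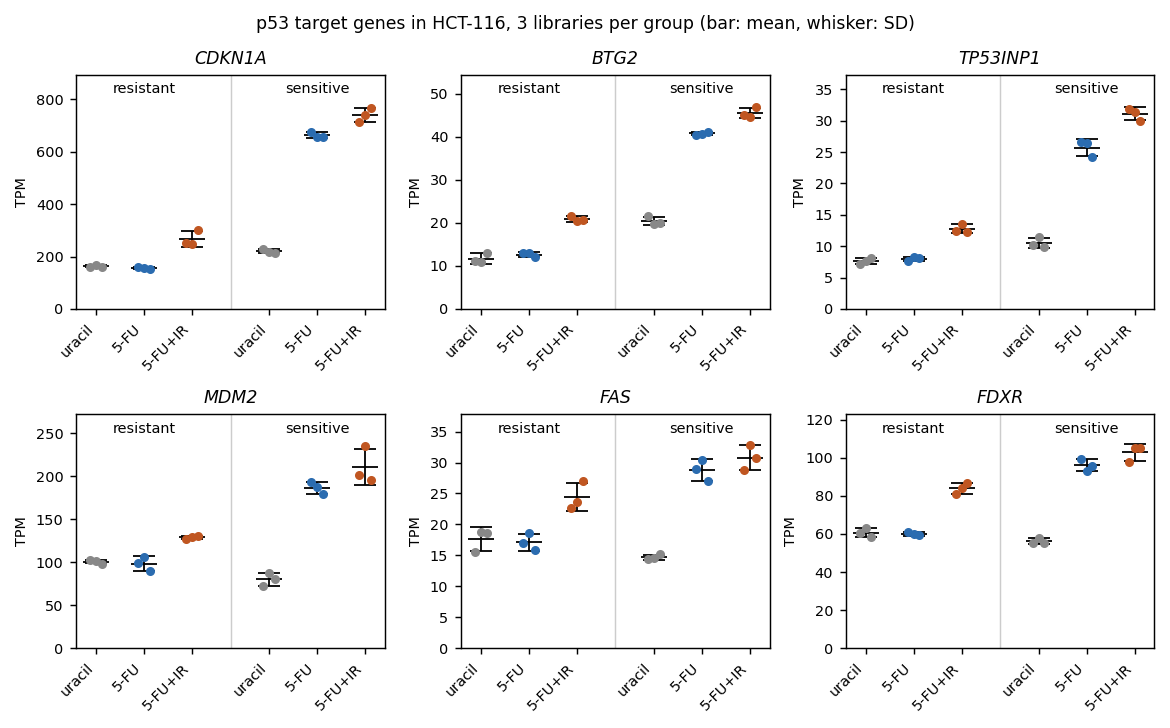
TPM (vertical axes, from 0) of 6 p53 targets in the 3 libraries of each HCT-116 group, with resistant cells on the left and sensitive cells on the right under uracil, 5-FU and 5-FU with irradiation. Points are libraries, bars means and whiskers SD; in resistant cells the irradiated points stand above the uracil and 5-FU points for all 6 genes, whereas in sensitive cells most of the rise is between uracil and 5-FU.

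The genes of G2 phase and mitosis fell. Of 72 tested, 34 were called lower and 0 higher, which is 47.2% of the list against 0.884% of all genes, and all 72 had a log2 fold change below 0. The median was -0.22. Leaving out 1 library gave 15 to 47 called members. The count was 15 without non-irradiated replicate 1, 15 without non-irradiated replicate 2, 20 without non-irradiated replicate 3, 15 without irradiated replicate 1 and 17 without irradiated replicate 2, and 47 without irradiated replicate 3. In bulk RNA, fewer cells in G2 and mitosis and less of these transcripts per cell cannot be told apart.

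Promoters of such genes often hold a cell cycle homology region, or CHR, with the letters TTTGAA or TTCGAA, near a CCAAT box. Both strands were searched from 250 bases before to 50 after the RefSeq start; TTCGAA reads the same on both strands, and a CHR and a CCAAT box can share at most 1 base. Of the 29 called G2/M genes with an entry, 82.8% held a CHR, against 11.7% of all 12893 promoters, and 75.9% held CCAAT, against 36.1%. Both were present in 69.0% of the 29 and in 4.91% of all promoters. The whole list of 60 with an entry was close to its called members, at 75.0% for the CHR. Stretches from 5 called genes are shown because these letters are what the group shared; capitals mark the CHR, read on the strand of the gene, with TTCAAA where it lies on the other strand (GRCh38).
BUB1B, chr15:40161046-40161051, 23 bases upstream: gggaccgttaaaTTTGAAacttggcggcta
KIF4A, chrX:70290070-70290075, 34 bases upstream: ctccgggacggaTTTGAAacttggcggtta
PLK1, chr16:23678860-23678865, 29 bases upstream: cccagcgccgcgTTTGAAttcggggaggag
CDC20, chr1:43358916-43358921, 65 bases upstream: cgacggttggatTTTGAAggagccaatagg
KIF11, chr10:92593102-92593107, 28 bases upstream: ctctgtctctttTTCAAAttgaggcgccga
The CDC20 stretch, the nearer to the start of its 2 matches, shows the CHR a few bases before a CCAAT box. The letters describe the promoters and were not measured for binding.

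KIF14, a kinesin of cytokinesis, had the smallest p among the genes that fell. Its level was 22.1, 22.8 and 21.1 TPM without and 16.7, 17.4 and 16.9 TPM with irradiation, and the log2 fold change was -0.38 ± 0.040 (SE, adjusted p = 9.35e-06). DLGAP5, a spindle protein, went from 101, 97.3 and 97.4 to 73.6, 72.4 and 73.7 TPM, a change of -0.41 ± 0.048 (SE, adjusted p = 3.26e-05). The DLGAP5 groups did not overlap, and the irradiated values were nearly equal. The kinetochore genes CENPE and CENPF fell, with log2 fold changes of -0.41 ± 0.058 (SE, adjusted p = 0.000215) and -0.42 ± 0.061 (SE, adjusted p = 0.000259). The proliferation marker MKI67 stood at 103, 110.3 and 109.7 TPM and then 77.2, 84.7 and 75.2 TPM, a change of -0.39 ± 0.067 (SE, adjusted p = 0.00109). The motor KIF11 went from 42.2, 41.1 and 41.7 to 33.5, 34.8 and 34.7 TPM (-0.27), and the kinetochore protein gene SPC25 changed by -0.37. The log2 fold changes were -0.24 for the mitotic kinase gene PLK1, -0.28 for the checkpoint gene BUB1B and -0.26 for cyclin B1, CCNB1. The adjusted p of PLK1 and CCNB1, 0.00931 and 0.00591, were close to the threshold. UBE2C, which marks mitotic proteins for degradation, stood at 307, 298 and 307 TPM and 298, 281 and 324 TPM and did not pass (adjusted p = 0.956).

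Genes of the G2/M list stayed far above their level in sensitive cells. The mean TPM of the irradiated resistant libraries was above that of the sensitive 5-FU libraries for 71 of 72 members and for all 34 that fell. Under 5-FU alone, the median member stood 4.20 times as high in resistant as in sensitive cells. In sensitive cells the median member was 3.15 times as high under uracil as under 5-FU, whereas in resistant cells the median log2 fold change of 5-FU over uracil was -0.01 with 0 calls.

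Genes outside the list fell too. HMGB2, a chromatin protein abundant in dividing cells, went from 620.1, 609 and 581 to 463, 462 and 450.2 TPM, a change of -0.39 ± 0.051 (SE, adjusted p = 7.55e-05). HIRIP3, a histone-binding protein, had the largest fall among called genes at 1 TPM or more with no overlap between the groups. It went from 37.2, 35.9 and 34.8 to 26.4, 27.7 and 27.8 TPM (-0.44 ± 0.051, SE, adjusted p = 2.41e-05). The phosphatase CDKN3 went from 149, 149 and 152 to 118, 116 and 112 TPM, a change of -0.37 ± 0.063 (SE, adjusted p = 0.00108). These 3 genes were picked from called genes with no overlap between the groups, so their separation follows from that choice. ADIRF-AS1 and CNTRL, a centriole protein, were among the 12 largest falls by the same choice, with log2 fold changes of -0.40 and -0.37. ADIRF-AS1 is an antisense RNA whose reads may not be told apart from its partner gene's without strand.

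**Figure D3:**
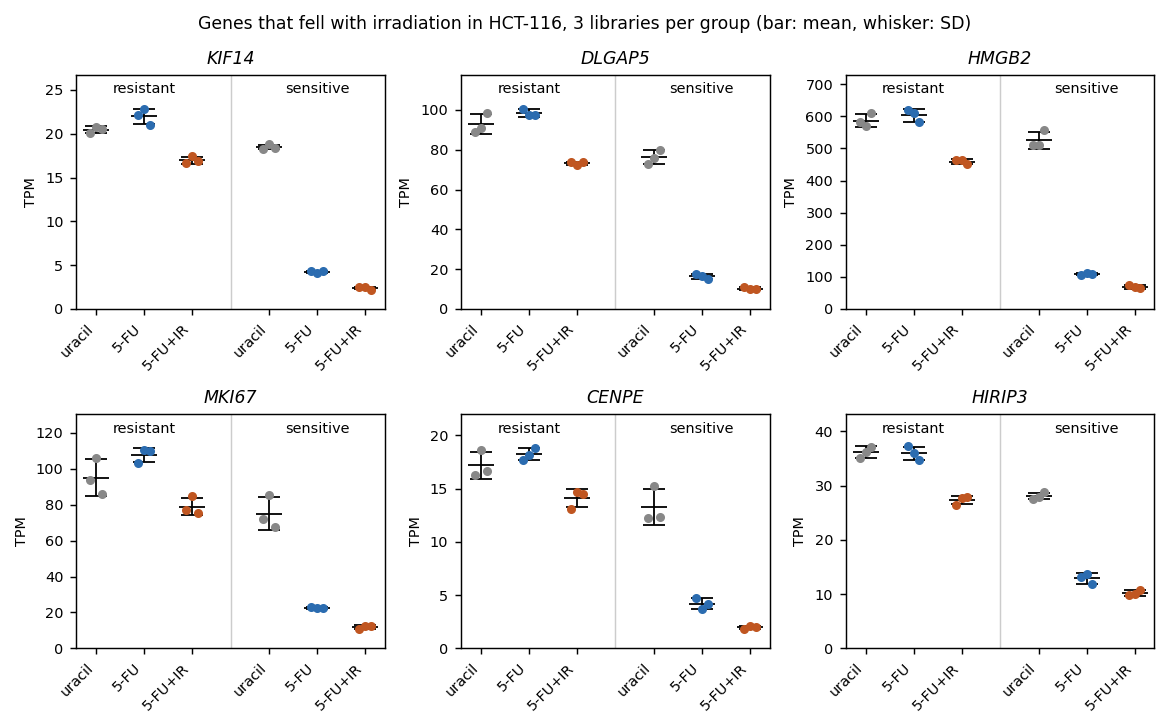
TPM (vertical axes, from 0) of 6 genes that fell with irradiation in the 3 libraries of each HCT-116 group, with resistant cells on the left and sensitive cells on the right under uracil, 5-FU and 5-FU with irradiation. Points are libraries, bars means and whiskers SD; in resistant cells the irradiated points stand below the uracil and 5-FU points, and all resistant points stand above those of sensitive cells under 5-FU.

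DNA replication and G1/S genes moved the same way with fewer calls. Of 66 tested, 8 were lower and 0 higher (12.1% against 0.884%), with a median log2 fold change of -0.12. The count was 3, 4 and 2 without 5-FU replicate 1, 2 and 3, and 4, 3 and 8 without irradiated replicate 1, 2 and 3. TIMELESS, which keeps replication forks stable, went from 53.5, 53 and 54.4 to 45.5, 46.0 and 43.8 TPM, a change of -0.24 ± 0.034 (SE, adjusted p = 0.000233). POLA1, the catalytic subunit of DNA polymerase alpha, went from 21.4, 20.3 and 20.8 to 19, 18.3 and 16.4 TPM (-0.24), and the helicase subunit MCM7 changed by -0.19. WDR76, RFC4, LIG1, PRIM1 and RRM1 made up the rest. The called values ranged from -0.26 to -0.17. All 8 genes had no overlap between the groups, as did 71.2% of the 66 tested members and 20.7% of all genes tested. TYMS, the thymidylate synthase that 5-FU inhibits, stood at 362, 349 and 348 TPM without and 319, 314 and 330.2 TPM with irradiation, and its change of -0.13 ± 0.043 (SE, adjusted p = 0.069) did not pass. Of 51 genes of double-strand break repair and checkpoints, 3 were lower (5.88%, against 0.884% of all genes tested) and 0 higher. They were FANCI (-0.19) and FANCA (-0.21) of the Fanconi pathway, and the end-joining polymerase POLQ (-0.30), whose TPM overlapped between the groups. The lower count was 0 without 5-FU replicate 1, 5-FU replicate 2 or irradiated replicate 1, 1 without 5-FU replicate 3 or irradiated replicate 2, and 4 without irradiated replicate 3.

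The other lists held few calls. In the list of ATF4 and unfolded protein response genes, 6 of 44 were lower (13.6%, against 0.884% of all genes tested). A further 2 were higher (4.55%, against 1.7%). The lower count was 3 without 5-FU replicate 1 or 2 and 4 to 6 without any other library, and the higher count was 1 or 2. ATF4 itself, the transcription factor of the amino acid response, went from 293, 289 and 288 to 257, 245 and 229 TPM, a change of -0.25 ± 0.042 (SE, adjusted p = 0.00107). The log2 fold change was -0.28 ± 0.041 (SE, adjusted p = 0.00027) for the arginine transporter SLC7A1, -0.25 ± 0.042 (SE, adjusted p = 0.00099) for the alanyl-tRNA synthetase AARS and -0.31 ± 0.063 (SE, adjusted p = 0.0049) for the asparagine synthetase ASNS. DDIT3, which encodes the stress factor CHOP, went from 17.8, 17.0 and 15.8 to 13.3, 13.6 and 12 TPM (-0.37 ± 0.083, SE, adjusted p = 0.00889). CEBPG was the other gene that fell, and those that rose were SESN2, which is also on the p53 list, and CTH. Among 33 genes of 5-FU and thymidylate metabolism, TYMP, the thymidine phosphorylase that can activate 5-FU, rose by 0.25 ± 0.047 (SE, adjusted p = 0.00208). RRM2B rose, while RRM1 and the nucleotidase NT5C (-0.24) fell. That made 2 higher and 2 lower (6.06% each), against 1.7% and 0.884% of all genes tested. The higher count was 2 without irradiated replicate 2 and 1 without any other library. The lower count was 0 without 5-FU replicate 1 or 2 or irradiated replicate 1 or 2, and 1 without 5-FU replicate 3.

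Epithelial genes were higher in 4 of 27 (14.8%, against 1.7% of all genes tested). CDH1, which encodes E-cadherin, went from 6.68, 7.84 and 7.68 to 9.91, 9.49 and 9.88 TPM, a log2 fold change of 0.47 ± 0.060 (SE, adjusted p = 6.24e-05). The keratin genes KRT18 and KRT8, a pair that forms the simple epithelial filaments, rose by 0.34 and 0.30, and the aquaglyceroporin AQP3 by 0.51. KRT18 was highest in irradiated replicate 3, at 632, 608 and 739.7 TPM against 539.7, 509.6 and 528 TPM. Without that library 1 of the 27 was called, the same count came without non-irradiated replicate 1, 2 or 3, and 2 were called without irradiated replicate 1. The summed TPM of 7 colorectal epithelial markers, all detected, was 2690 to 2785 in the 5-FU libraries and 2972 to 3405 in the irradiated ones. Most of that rise was in KRT8 and KRT18, with means of 963 and 1173 TPM and of 526 and 660 TPM. KRT19 had means of 947 and 1019 TPM and CLDN3 of 6.91 and 7.53 TPM. EPCAM (233 and 230 TPM) and CLDN4 (63.5 and 63.9 TPM) barely differed. Markers of other cell types were low. The sums of 5 leukocyte markers were 0.542 to 0.998 and 0.949 to 2.60 TPM, with CD3E at 0 in all 6 libraries, those of 4 endothelial markers 0.756 to 1.41 and 1.37 to 1.95 TPM, and those of 6 fibroblast markers 12.9 to 14.1 and 12.2 to 15.1 TPM, nearly all from COL1A1. Their part in the results was not tested.

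Interferon-stimulated genes were higher in 3 of 46 (PARP9, SP100 and SAMD9, 6.52%) and replication-dependent histones in 2 of 32 (HIST1H2BD and HIST1H2BK, 6.25%). Mesenchymal genes were higher in 2 of 29 (ACTA2 and COL6A1, 6.90%). The share over all genes tested was 1.7% higher and 0.884% lower. Without any 1 of the 6 libraries, with DESeq2 size factors or in a fit of the 6 libraries alone, 0 interferon-stimulated genes were called. The histone count was 1 without 5-FU replicate 2 or 3 or any irradiated replicate, and the mesenchymal count was 1 without 5-FU replicate 2 or 3 or irradiated replicate 1 or 2. ACTA2 overlaps FAS on the opposite strand, and whether strand was used in counting is not given in the sources used here. ACTA2 went from 8.81, 7.97 and 9.31 to 14.4, 12.5 and 12.6 TPM (0.60). One gene was higher among immediate-early genes (ATF3, 39 tested, 2.56%) and among NRF2 targets (ABCC2, 29 tested, 3.45%). The same held for cholesterol and fatty acid synthesis (TM7SF2, 33 tested, 3.03%) and WNT targets (EPHB2, 18 tested, 5.56%). DKC1 was lower among 48 ribosome biogenesis genes (2.08%). These shares rest on 1 gene each, and several are near those over all genes tested. The call on TM7SF2 held without any 1 of the 6 libraries. There were 0 higher calls on the lists of ATF3, ABCC2 and EPHB2 and 0 lower calls on that of DKC1 without 5-FU replicate 1 or 3, and further calls were lost without other single libraries. ATF3 itself was not called in any fit with 1 library left out. NF-kB targets (31), hypoxia and glycolysis (39), mitochondrially encoded genes (15) and heat shock genes (19) had 0 calls. On these 4 lists the smallest adjusted p values were 0.0199 for NFKB2, 0.0584 for MXI1, 0.342 for MT-CO3 and 0.0259 for HSPA1B.

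**Figure D4:**
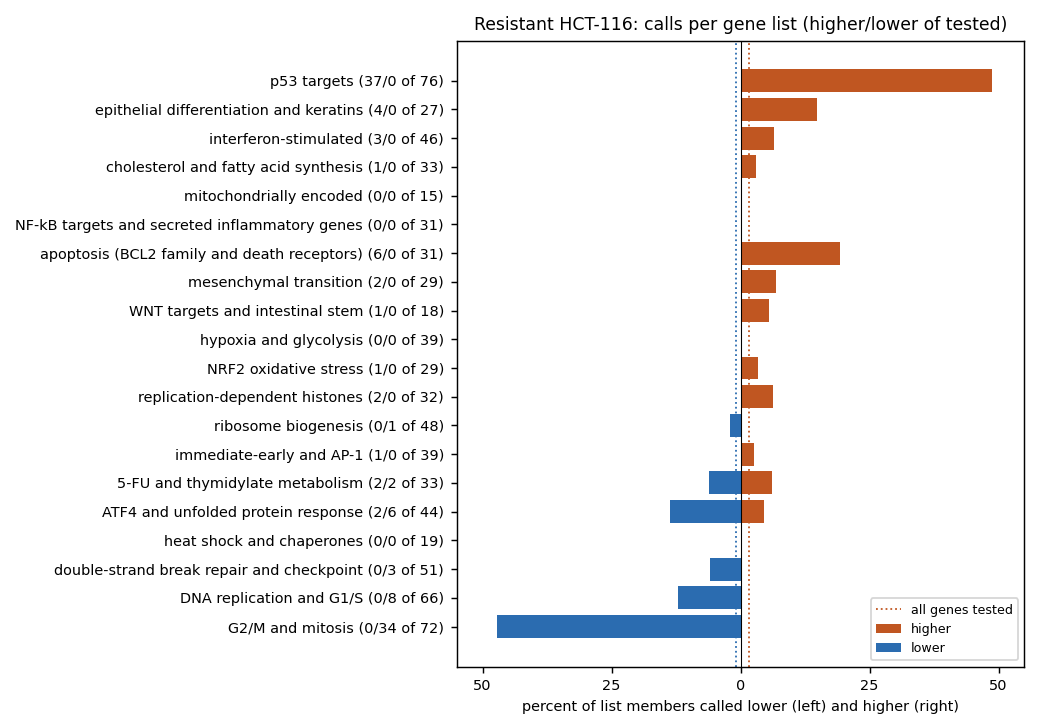
Percent of tested members called lower (blue, to the left) and higher (orange, to the right) for 20 gene lists, ordered by their median log2 fold change, with called higher/lower of tested in each label. Dotted lines mark the shares over all genes tested, 1.7% higher and 0.884% lower; the p53 targets (37 of 76 higher) and the G2/M genes (34 of 72 lower) reach farthest.

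The largest rises were in genes of low level. Of the 6 genes past 2-fold, CAMKV and AC093724.3 stayed under 1 TPM in every library; they and TRIM22 were named after their values were seen. AC108865.1, a locus named only by its clone, went from 1.55, 1.77 and 1.91 to 3.82, 4.10 and 4.19 TPM, a log2 fold change of 1.23 ± 0.25 (SE, adjusted p = 0.00451). It was not called in any fit with 1 library left out, where its adjusted p ranged from 0.0115 to 0.035. ALOX5, the arachidonate 5-lipoxygenase and a p53 target, went from 1.16, 0.919 and 1.73 to 2.46, 3.20 and 4.84 TPM (1.05 ± 0.19, SE, adjusted p = 0.0017). EBI3, a cytokine subunit, was at 0.60, 1.10 and 0.899 TPM and then 2.61, 1.58 and 2.23 TPM (1.02 ± 0.21, SE, adjusted p = 0.00528). Without single libraries the adjusted p reached 0.0191 for ALOX5 and 0.0484 for EBI3, so neither call always held. TRIM22, an interferon- and p53-induced gene, overlapped between groups in TPM, at 0.376, 2.11 and 0.418 and 1.07, 1.74 and 1.80 TPM, so its fold is uncertain. The ligands WNT7A and CD70 rose by 0.92 and 0.89, and CD70 went from 3.11, 2.93 and 3.28 to 5.49, 6.59 and 5.64 TPM. The adjusted p of CD70 reached 0.0187 when single libraries were left out. The p53 target WDR63 (0.85), the patched-domain gene PTCHD4 (0.85), the phosphatase INPP5D (0.82) and the ion pump regulator FXYD3 (0.84) followed, with AL135905.1 (0.96). CR381653.1 and CR381653.2 (0.91 and 0.83) may share reads by estimate, so their values are uncertain.

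In sensitive HCT-116 cells, which had the same doses, adding irradiation gave 2 genes (0.00871%) that were higher and 211 (0.918%) lower. Of the p53 list 1 of 76 was higher, TP53INP1 (0.27 ± 0.053, SE, adjusted p = 0.00518), with a list median of 0.11. Of the G2/M list 62 of 72 were lower, with a median of -0.57. CDKN1A changed by 0.15 ± 0.059 (SE, adjusted p = 0.429) in sensitive cells, and MKI67 by -0.93 ± 0.069 (SE, adjusted p = 4.87e-08). The 2 comparisons share no library. They had 84 called genes in common, 83 of them lower in both, which is 14.2% of the calls in resistant cells and 39.4% of those in sensitive cells.

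The difference between the responses was tested directly, as the log2 fold change in resistant minus that in sensitive cells. It was called for 38 genes (0.165%), all with a higher value in resistant cells, and for 0 genes (0%) in the other direction, where 2863 genes had an unadjusted p under 0.05 in either direction and DESeq2 called 13 lower. Of the 38, 18 rose in resistant cells and 20 fell in sensitive cells. They included 6 p53 targets (CDKN1A, BTG2, FDXR, RPS27L, CYFIP2 and PLK2) and 15 G2/M genes. For CDKN1A the difference was 0.64 ± 0.085 (SE, adjusted p = 0.00202) and for BTG2 0.58 ± 0.081 (SE, adjusted p = 0.00285). MKI67 (0.53 ± 0.096, SE, adjusted p = 0.00986) and KIF14 (0.44 ± 0.065, SE, adjusted p = 0.00285) fell in both kinds of cell, by more in sensitive cells. PLXNB3, a semaphorin receptor, differed most among these genes at 1 TPM or more (0.70 ± 0.11, SE, adjusted p = 0.00347). The number of calls depended on single libraries. Without any 1 of the 3 resistant 5-FU libraries, the 3 sensitive 5-FU libraries or sensitive irradiated replicate 2, 0 genes were called. Without resistant irradiated replicate 1, resistant irradiated replicate 3 or sensitive irradiated replicate 3, 4, 7 and 1 were called. Over the alternatives run, the difference for CDKN1A ranged from 0.505 to 0.689, that for BTG2 from 0.532 to 0.597 and that for PLXNB3 from 0.621 to 0.732, with largest adjusted p values of 0.0214, 0.0214 and 0.0289.

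**Figure D5:**
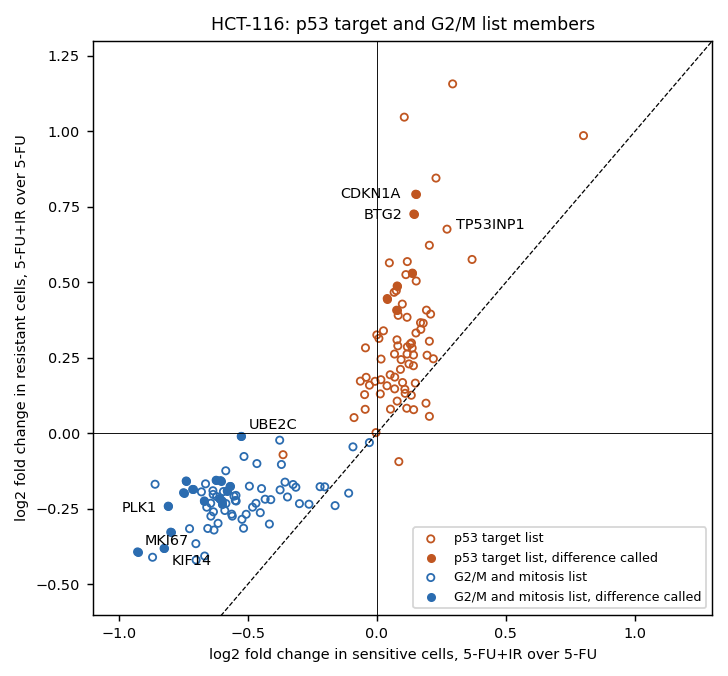
Log2 fold change of 5-FU with irradiation over 5-FU in resistant HCT-116 (vertical axis) against that in sensitive HCT-116 (horizontal axis) for members of the p53 target list (orange) and the G2/M list (blue); the dashed line marks equal change. Filled points are genes whose difference was called; most points of both lists lie above the line, with 70 of 76 p53 targets and 69 of 72 G2/M genes higher in resistant cells.

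Resistant cells labelled as the other lines had the same 5-FU dose, and by the study's methods the radiation dose was set for each line, so values are set side by side with that limit. In resistant DLD-1, 820 genes (3.53%) were higher and 294 (1.27%) lower. The libraries labelled resistant HT-29 had 1626 (7.0%) higher and 1752 (7.54%) lower. The p53 list had 12 members higher and 1 lower in DLD-1, and 61 higher and 0 lower in the libraries labelled HT-29. The G2/M list had 3 higher and 8 lower in DLD-1, and 3 higher and 60 lower in the libraries labelled HT-29. Replication genes went opposite ways: 22 of 66 were higher in DLD-1 and 57 of 66 lower in the libraries labelled HT-29. The count of 8 lower in resistant HCT-116 came from the fit of HCT-116 libraries. Counts for the other lines came from a second fit with its own filter and estimate of the spread, so they are not strictly alike.

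Resistant HCT-116 minus resistant DLD-1 was higher for 82 genes (0.353%) and lower for 262 (1.13%). MDM2 did not pass in DLD-1 (-0.02 ± 0.045, SE, adjusted p = 0.863), and its difference between the lines was 0.38 ± 0.061 (SE, adjusted p = 0.000663). BTG2, FDXR, RPS27L, RRM2B and SESN1 also differed, by 0.53, 0.44, 0.55, 0.44 and 0.72. CDKN1A rose in DLD-1 by 1.10 ± 0.11 (SE, adjusted p = 9.3e-07), and its difference from HCT-116 of -0.31 ± 0.14 (SE, adjusted p = 0.232) did not pass. Its level was far lower in resistant DLD-1, at a mean of 4.06 TPM under 5-FU and 8.57 TPM with irradiation. In resistant HCT-116 the means were 156 and 267 TPM. PLK2 rose in both, by 0.41 and 0.41, with a difference of -0.01 ± 0.058. Of the replication list, 25 genes were lower in HCT-116 than in DLD-1 by this test, TIMELESS among them (-0.31 ± 0.049, SE, adjusted p = 0.000663).

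Resistant HCT-116 minus the libraries labelled resistant HT-29 was higher for 43 genes (0.185%) and lower for 28 (0.121%). The p53 list had a median difference of -0.14, with 2 members lower, BTG2 (-0.41 ± 0.076, SE, adjusted p = 0.00629) and FDXR (-0.31 ± 0.055, SE, adjusted p = 0.00511). BTG2 stood at 14.8, 14.7 and 15.6 TPM in those libraries under 5-FU and 33.6, 32.3 and 34.6 TPM with irradiation. CDKN1A rose by 1.13 ± 0.073 (SE, adjusted p = 1.32e-10) there, and the difference of -0.34 ± 0.10 (SE, adjusted p = 0.112) did not pass. Both sets of libraries carry HCT-116 markers. The dose behind the libraries labelled HT-29 is uncertain, since it was set by the line and their markers go against the label.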

How the data were processed

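RNA was extracted from 54 cultures by the authors, poly(A) RNA was sequenced in pairs of reads, reads were trimmed with Trimmomatic 0.36 and quantified with kallisto 0.44.0 against Ensembl transcripts of GRCh38.p13. The deposited values are estimated counts and TPM per transcript and per gene name, for each library. Reads shared by near-identical copies are divided by estimate, so CR381653.1, CR381653.2 and the histone genes are uncertain. Estimated counts deposited by the authors were rounded to whole numbers here, and the TPM deposited by the authors were used as levels. No file gives strand use in counting.

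The 18 HCT-116 libraries were fitted in 6 groups with edgeR 4.0.16 (quasi-likelihood, TMM scaling, filterByExpr on group) in R 4.3.3, which left 12 residual degrees of freedom. A gene was called at an adjusted p of at most 0.01 (Benjamini-Hochberg over all genes tested), two-sided, and the SE is the log2 fold change divided by the square root of the F statistic. The difference from DLD-1 and from the libraries labelled HT-29 was tested in a second fit of 18 resistant libraries. For the HCT-116 fit, DESeq2 1.42.0, other scalings, no filter, only the 6 libraries and single libraries left out were alternatives. For the second fit, the alternatives were a replicate block and library size alone. The model was tested on simulated data. Promoters came from RefSeq (GRCh38), where 12893 of the 22975 tested genes had an entry.

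The comparison, its members and its 20 gene lists were chosen with earlier results of these data known. The named genes are the 12 largest changes in each direction among called genes at 1 TPM or more with no overlap, the 3 smallest p of each list, CDKN1A, MDM2 and TYMS, and the largest differences from sensitive cells; other list members, 2-fold genes and promoter sequences were picked after their values were seen. A further gene of the rule is not reported here. The study describes its replicates as biological. Resistant libraries of a line share 1 population, and so do its sensitive libraries, so p-values measure the spread between cultures of a population. The difference between resistant and sensitive HCT-116 rests on 1 population of each.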

Additional observations from a re-analysis of the deposited data

Results flagged for a closer look

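Between resistant and sensitive HCT-116, the log2 response to irradiation differed by test for 9 of the named genes, each higher in resistant cells: PLXNB3 by 0.695, CDKN1A by 0.641, BTG2 by 0.583, MKI67 by 0.534, TM7SF2 by 0.49, KIF14 by 0.443, ESPL1 by 0.364, PLK2 by 0.331 and CYP24A1 by 0.299. CDKN1A, BTG2, PLK2, TM7SF2 and CYP24A1 rose in resistant cells, whereas KIF14, MKI67 and ESPL1 fell in both kinds of cell. All of these calls were lost without any 1 of the resistant 5-FU libraries, any 1 of the sensitive 5-FU libraries or sensitive irradiated replicate 2. Over the alternatives run, the difference for CDKN1A ranged from 0.505 to 0.689, that for BTG2 from 0.532 to 0.597, that for PLXNB3 from 0.621 to 0.732 and that for KIF14 from 0.365 to 0.463.

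Between resistant HCT-116 and resistant DLD-1, whose radiation dose was set separately by line, the difference in log2 response was positive for HIST1H2BK (0.742), BTG2 (0.528), RRM2B (0.437) and MDM2 (0.381). It was negative for COL6A1 (-0.611), POLQ (-0.477), WDR76 (-0.387), CDKN3 (-0.353), TIMELESS (-0.306) and FANCI (-0.273).

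Between resistant HCT-116 and the libraries labelled resistant HT-29, the difference was -0.409 for BTG2, -0.341 for COL6A1, 0.34 for ESPL1 and 0.265 for HMGB2. Line and dose cannot be told apart in the comparison with DLD-1, and the dose behind the libraries labelled HT-29 is uncertain because their markers go against that label.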

How the results depend on the processing

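The counts of higher, lower and 2-fold genes in resistant HCT-116 were 620, 355 and 76 with no filter on low counts, and 115, 102 and 1 with only the 6 libraries compared, which left 4 residual degrees of freedom. At an adjusted p of 0.05 they were 852 higher and 531 lower. DESeq2 gave 488 lower and 2 past 2-fold. Leaving out 1 library gave 118 to 270 higher, 75 to 195 lower and 2 to 6 past 2-fold. The lowest counts came without 5-FU replicate 1. All 593 called genes, chosen with all 6 libraries, kept their direction in these 6 fits. Of them, 100 were called in each of the 13 alternatives.

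The difference from sensitive cells gave 58 genes higher with library size alone, 16 with DESeq2 size factors, 288 with no filter, 147 with DESeq2 and 184 at an adjusted p of 0.05, and 0 to 33 when 1 library was left out. The lower count was 30 with no filter, 13 with DESeq2 and 3 at 0.05. In sensitive cells, no filter gave 32 higher and 364 lower, DESeq2 gave 5 higher, and leaving out 1 library gave 0 to 3 higher. With library size alone the differences from DLD-1 gave 189 higher, and those from the libraries labelled HT-29 gave 77 higher and 71 lower. The causes were not tested.

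The replicate block gave 413 higher and 229 lower, and 51 for the difference from sensitive cells. Only the 6 libraries with a replicate block gave 73 higher, 78 lower and 2 past 2-fold. The correlations of same-numbered libraries were -0.0053, 0.018 and -0.013, and not every library correlated best with its own number. These values show no pairing by number, but they cannot tell whether same-numbered cultures were handled together. Limits: 3 libraries per group, 1 resistant population, and an irradiated library that stood apart limit the size of change that can be called.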
